A study of Mus musculus with 8 samples.

Results

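The spindle assembly checkpoint genes described here are Mad2l1, Mad1l1, Bub1, Bub1b, Bub3 and Ttk, chosen by their symbols and not by any measured value. Earlier results of these data were known when the genes were chosen. All 6 were found among the 25574 genes of the deposited table, and all 6 were among the 14292 genes tested, those whose FPKM (fragments per kilobase of gene, scaled to the size of the library) averaged over 0.1 in NP, in P or in both. The RNA came from mouse oocytes at nuclear envelope breakdown (NEBD), the first visible step of resumed meiosis. Lysates were separated on sucrose gradients, and the pooled non-polysomal fractions gave the NP dataset (4 libraries) while the pooled polysomal fractions gave the P dataset (4 libraries). In the study, the NP fractions included the peaks of the ribosomal subunits and of single ribosomes. The top fraction of the gradient was left out of both pools. Every library shares the same biological background. CD1 mice 8 weeks old received 5 IU of pregnant mare serum gonadotropin, oocytes were collected 46 h later in medium with the meiotic inhibitor IBMX (100 µM), cultured without it for 180 min, and exposed to cycloheximide (0.1 mg/mL) for 10 min to hold ribosomes on the mRNA. Each lysate came from 200 pooled oocytes, so no value refers to a single cell. Per the study's methods, the fractions of each gradient gave both an NP and a P pool, so the datasets share their oocytes. The sources used here do not say which NP and P libraries came from the same gradient. The comparison of P with NP asks where in the gradient a transcript was found, at a single stage.

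The checkpoint delays anaphase until chromosomes are attached to spindle microtubules. At unattached kinetochores the kinase Ttk (Mps1) and the kinase Bub1 recruit Mad1l1, which holds Mad2l1 and converts it to its active form. Active Mad2l1, Bub1b (BubR1) and Bub3 then bind Cdc20 as the mitotic checkpoint complex, which inhibits the anaphase-promoting complex. In oocytes the same proteins time the first meiotic division, and because transcription is silent at this stage they are made from stored maternal mRNA.

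Bub1b was by far the most abundant of the 6 mRNAs in both datasets, and no member differed between P and NP beyond the spread of the libraries. Its FPKM averaged 933 ± 183 in the 4 NP libraries and 1681 ± 868 in the 4 P libraries (± SD throughout), whereas Bub1, the least abundant, averaged 12.8 ± 10.2 and 11.0 ± 6.82. At an adjusted p below 0.1, limma called 0 of the 6 genes, and 0 of them had an unadjusted p below 0.05. Over all genes tested, 0.021% were called, and 9.95% had an unadjusted p below 0.05 (9.47% higher in NP and 0.476% higher in P). No member had all 4 NP libraries above all 4 P libraries or the reverse, patterns found in 5.92% and 0.357% of the genes tested. Nor did the means of any member differ by more than 2-fold, as those of 40.6% of the genes tested did with NP higher and 16.9% with P higher. The genes tested include many at far lower levels than the members, and the shares were not matched for level. When reads recovered from the FPKM steps were fitted with voom, the count method of limma, 0 of the 6 genes were called and 1, Bub1b, had an unadjusted p below 0.05. FPKM values are relative to each library, so a smaller amount of an mRNA and a smaller share of its pool cannot be told apart.

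The 3′ ends of the mRNAs are shown first, because in maturing oocytes the polysome loading of many stored mRNAs is controlled there by the cytoplasmic polyadenylation element (CPE), which binds Cpeb1, near the polyadenylation signal. The genomic sequence of GRCm38 was searched on the gene's own strand in the last 150 bases of each gene as the deposited table bounds it, for the CPE letters TTTTAT and TTTTAAT and for the signal AATAAA with its variant ATTAAA, and overlapping matches were counted. Each line gives 30 bases, read 5′ to 3′, with complete motifs in capitals. All 6 windows lie in the 3′ UTR of their gene as annotated in GENCODE M21. They end with the signal nearest the gene end, except that the Mad2l1 window starts 1 base before its signal.
Bub1b (chr2:118641547-118641576, + strand): ctctcctttcactgtgtaTTTTATAATAAA
Mad2l1 (chr6:66540964-66540993, + strand): tAATAAAgaactcttaTTTTAATgTTTTAT
Ttk (chr9:83872337-83872366, + strand): gctggaatgttgaagagctctgtaAATAAA
Bub3 (chr7:131571847-131571876, + strand): ctcaccctctcaatttgcctgtttATTAAA
Mad1l1 (chr5:140008715-140008744, − strand): gtgtccacagtctcagactaatgaAATAAA
Bub1 (chr2:127801139-127801168, − strand): tactatttatgtatgtttaaaaaaAATAAA

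A CPE was found in the window of 3 of the 6 genes, Bub1b, Mad2l1 and Ttk, and in 22.9% of the 14292 genes tested. In Bub1b the CPE adjoined the signal without a base between them, with TTTTAT followed directly by AATAAA, an arrangement which occurred in the window of 29 (0.203%) of the genes tested. That count covers only these exact letters, the ones seen in Bub1b, and no other adjoining form. It therefore does not measure how unusual Bub1b is. Bub1b held another CPE 59 bases from its end. In Mad2l1 both CPE matches lay 3′ of the signal, 54 and 46 bases from the end of the gene, and in Ttk the match lay 109 bases from the end. No CPE letters occurred in the windows of Bub3, Mad1l1 and Bub1. A signal of either form was present in all 6 genes and in 75.7% of the genes tested. These matches describe letters in the annotated ends, and the ends used in these oocytes were not measured.

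**Figure D1:**
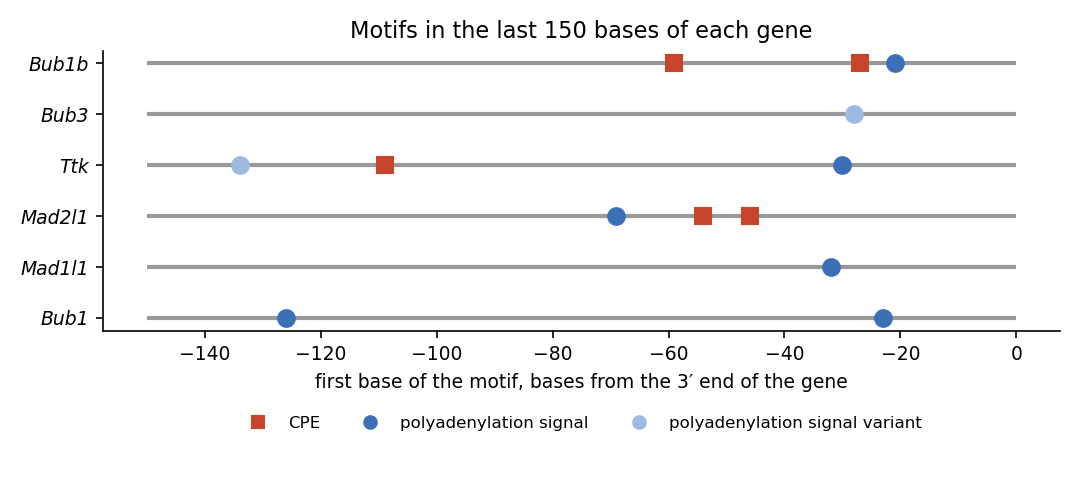
Motif matches in the last 150 bases of each gene, drawn as the distance in bases from the 3′ end to the first base of the match (squares, CPE; circles, polyadenylation signal and its variant). Bub1b has a CPE 27 bases from its end directly before a signal at 21 bases, and Bub3, Mad1l1 and Bub1 have none.

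Of the subunits of the mitotic checkpoint complex, Bub1b, the BubR1 protein that binds Cdc20, stood apart by its level. The gene lies on chromosome 2 (118598211 to 118641591). Its FPKM was 1102, 704, 867 and 1058 in NP replicates 1 to 4 and 2721, 983, 2073 and 947 in P replicates 1 to 4. All 4 P libraries exceeded the NP mean, but P replicates 2 and 4 lay within the NP range, so the datasets overlapped. The P over NP ratio of the means was 1.80, and the log2 fold change from limma on log2(FPKM + 1) was 0.72 (standard error 0.54, 95% interval −0.45 to 1.89, adjusted p = 0.644). It was the only member with a positive log2 fold change, a sign found in 28.6% of all genes tested. The value stayed above 0 under all 15 alternatives, from 0.44 without P replicate 1 to 2.06 after median scaling, which gave all libraries the same median FPKM and where the unadjusted p was 0.00598 and the adjusted p 0.419. Bub1b exceeded 99.2 to 99.9% of the genes tested, depending on the library, and ranked 9 among all genes in P replicate 3.

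Bub3, on chromosome 7 (131560391 to 131571898), encodes the WD-repeat partner that carries Bub1 and Bub1b to kinetochores. Its FPKM was 538, 427, 303 and 83.4 in NP replicates 1 to 4 and 467, 389.8, 142 and 139 in P replicates 1 to 4. NP replicate 4 was the lowest of the 8 libraries and NP replicate 1 the highest, so every P library fell inside the NP range. The log2 fold change was −0.17 (standard error 0.69, 95% interval −1.65 to 1.30, adjusted p = 0.920 from limma). Without NP replicate 4 it was −0.74, and it was above 0, at most 0.15, when NP replicate 1, NP replicate 2, P replicate 3 or P replicate 4 was left out.

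Mad2l1, on chromosome 6 (66535390 to 66541033), encodes the protein whose active form captures Cdc20. Its FPKM was 39.1, 30.7, 44.0 and 19.2 in NP replicates 1 to 4 and 47.6, 61.6, 1.12 and 55.6 in P replicates 1 to 4. P replicates 1, 2 and 4 lay above every NP library, while P replicate 3 lay below them all. The mean of P was 1.25 times that of NP, yet the log2 fold change was −0.41 (standard error 0.98, 95% interval −2.51 to 1.68, adjusted p = 0.864 from limma), since the log scale gives the low library more weight. Without P replicate 3 the log2 fold change was 0.76 and the adjusted p 0.673. The 1.12 FPKM rested on 11 reads, with an exact 95% Poisson interval of 0.561 to 2.01 FPKM, and the next lowest P library had 328 reads. In the same library Bub1b had 39395 reads and its highest rank, so the low value was not shared by the checkpoint mRNAs as a group.

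Mad1l1, on chromosome 5 (140008689 to 140321552), encodes the kinetochore platform for Mad2l1. Its FPKM was 18.5, 27.0, 19.1 and 3.03 in NP replicates 1 to 4 and 36.8, 12.4, 19.9 and 0.220 in P replicates 1 to 4. P replicate 1 was the highest and P replicate 4 the lowest of the 8 libraries, so P enclosed the whole NP range. The P replicate 4 value rested on 2 reads (exact 95% Poisson interval 0.0267 to 0.796 FPKM) against 135 to 587 reads in the other P libraries. The ratio of the means was 1.03, and it was 0.642 without P replicate 1 and 1.36 without P replicate 4. The log2 fold change of −0.44 (standard error 1.06, 95% interval −2.71 to 1.82, adjusted p = 0.866 from limma) became −1.05 without P replicate 1, −1.06 without NP replicate 4 and 0.60 without P replicate 4. Intervals on reads cover counting error only, because amplified cDNA without molecular identifiers does not give independent molecules.

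Of the kinases, Ttk, on chromosome 9 (83834689 to 83872390), phosphorylates the kinetochore scaffold and starts the signal. Its FPKM was 209, 146, 327 and 56.9 in NP replicates 1 to 4 and 137, 108, 205 and 10.0 in P replicates 1 to 4. The highest 2 values were NP replicate 3 and NP replicate 1 and the lowest was P replicate 4, but the datasets overlapped. Ttk was lower in P than in the NP library of the same number in 4 of 4 cases, as were 16.5% of all genes tested. The sources used here do not say that a number marks 1 gradient. Ttk had the lowest P over NP ratio of the 6 genes, 0.623, and a log2 fold change of −1.02 (standard error 0.87, 95% interval −2.89 to 0.84, adjusted p = 0.662 from limma). Without P replicate 4, which held 78 reads of Ttk, the log2 fold change was −0.09 and the ratio of means 0.812. Without P replicate 3 these were −1.50 and 0.461, and without NP replicate 4 they were −1.50 and 0.506, so single libraries moved the difference in both directions.

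Bub1, on chromosome 2 (127801122 to 127831865), encodes the kinase that marks centromeric chromatin and binds Bub3. Its FPKM was 14.9, 4.24, 26.3 and 5.62 in NP replicates 1 to 4 and 11.1, 19.9, 9.76 and 3.34 in P replicates 1 to 4. The spread within NP, 6.21-fold from the lowest to the highest library, was far wider than the difference of the means (ratio 0.864). The log2 fold change was −0.09 (standard error 0.83, 95% interval −1.87 to 1.70, adjusted p = 0.966 from limma). It changed sign when NP replicate 1, NP replicate 3 or P replicate 4 was left out, reaching 0.35 without NP replicate 3.

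**Figure D2:**
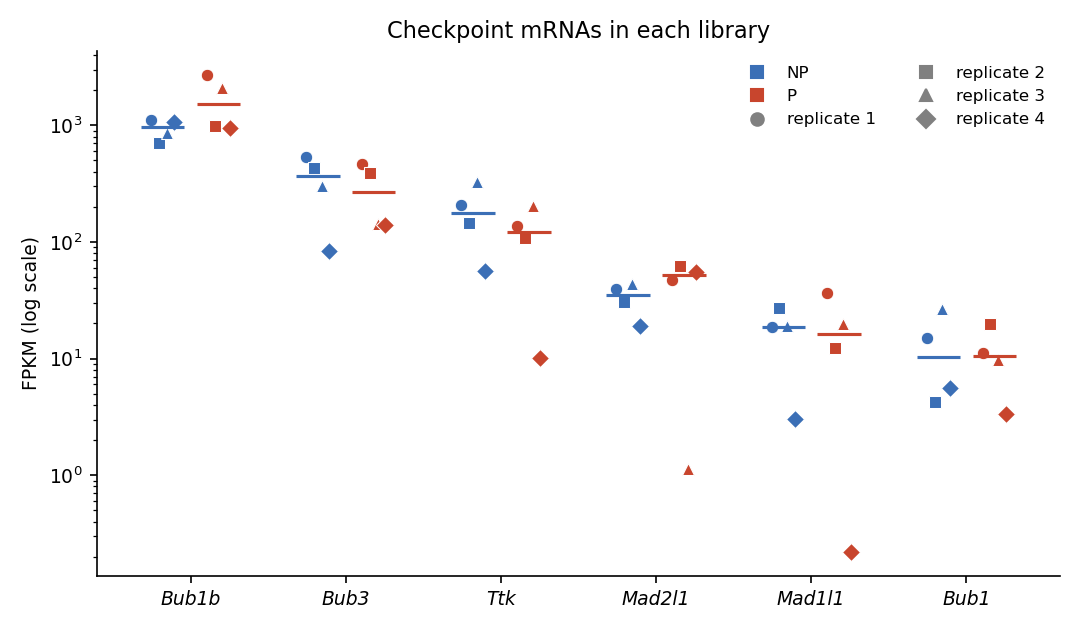
FPKM of each gene in each library on a log axis (blue, NP; red, P; marker shape, replicate number; line, median of 4). Bub1b lies between 704 and 2721 in all 8 libraries, while single P libraries fall to 1.12 for Mad2l1 and 0.220 for Mad1l1.

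**Figure D3:**
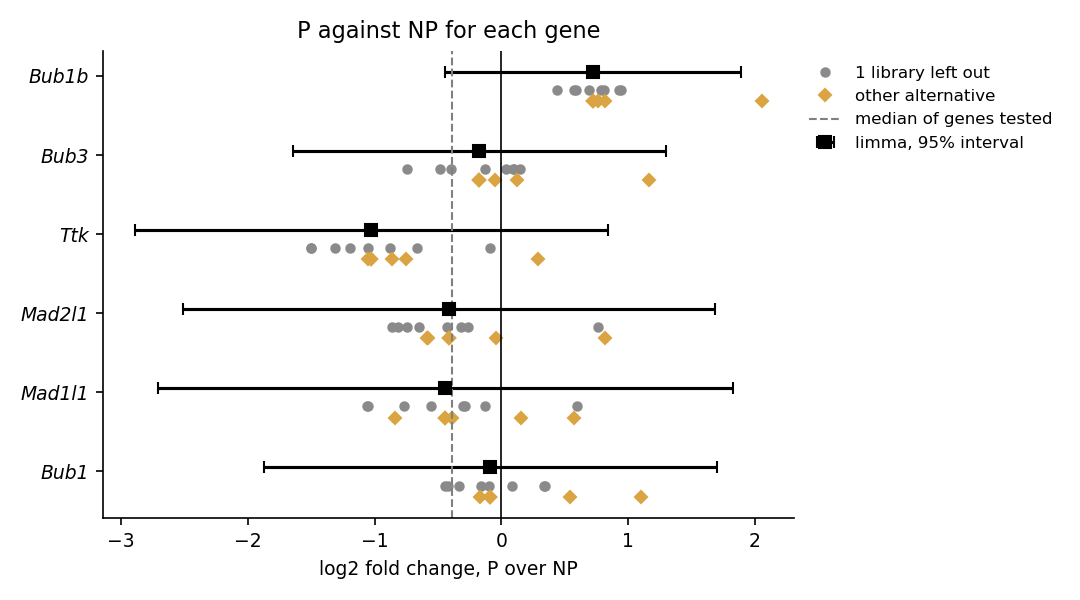
Log2 fold change of P over NP for each gene (black squares with 95% intervals, limma), with the values when 1 library was left out (grey circles), under the other alternatives (yellow diamonds) and the median of all genes tested (dashed line, −0.39). Every interval includes 0, and Bub1b alone has all its values above 0.

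FPKM is a value per length, so levels of different genes can be compared within a library. The order of the means was the same in NP and P, Bub1b, Bub3, Ttk, Mad2l1, Mad1l1 and Bub1 from high to low, and Bub1b exceeded Bub1 73.0-fold in NP and 152-fold in P. Bub1b was above Bub3 in all 8 libraries, and their levels did not overlap in either dataset. Bub3 was above Ttk in 6 of the 8 libraries, and these neighbours overlapped in both datasets. Ttk was above Mad2l1 in 7 of the 8 libraries, with no overlap in NP but with overlap in P. Mad2l1 was above Mad1l1 in 7 of the 8 libraries and overlapped with it in both datasets. Mad1l1 was above Bub1 in 4 of the 8 libraries, so the lowest 2 places were not distinguished, and they exchanged places when NP replicate 2 or P replicate 1 was left out.

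Within a library, the composition of the pool does not depend on the scaling between libraries. Bub1b made up 57.4, 52.5, 54.6 and 86.3% of the summed FPKM of the 6 genes in NP replicates 1 to 4 and 79.5, 62.4, 84.6 and 82.0% in P replicates 1 to 4. NP replicates 1, 2 and 3 lay below every P library and NP replicate 4 lay above them all. The ratio of Bub1b to its binding partner Bub3 ranged from 1.65 to 12.7 in NP (median 2.45) and from 2.52 to 14.6 in P (median 6.31), again with overlap. Cdc20, the target that the complex holds, is named for its role and not by its values. Its FPKM averaged 39.3 ± 28.7 in NP and 49.3 ± 32.1 in P, near that of Mad2l1, which exceeded it in 4 of the 8 libraries, whereas Bub1b exceeded Cdc20 by between 14.3-fold and 74.5-fold. These are mRNA levels, and protein amounts were not measured.

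**Figure D4:**
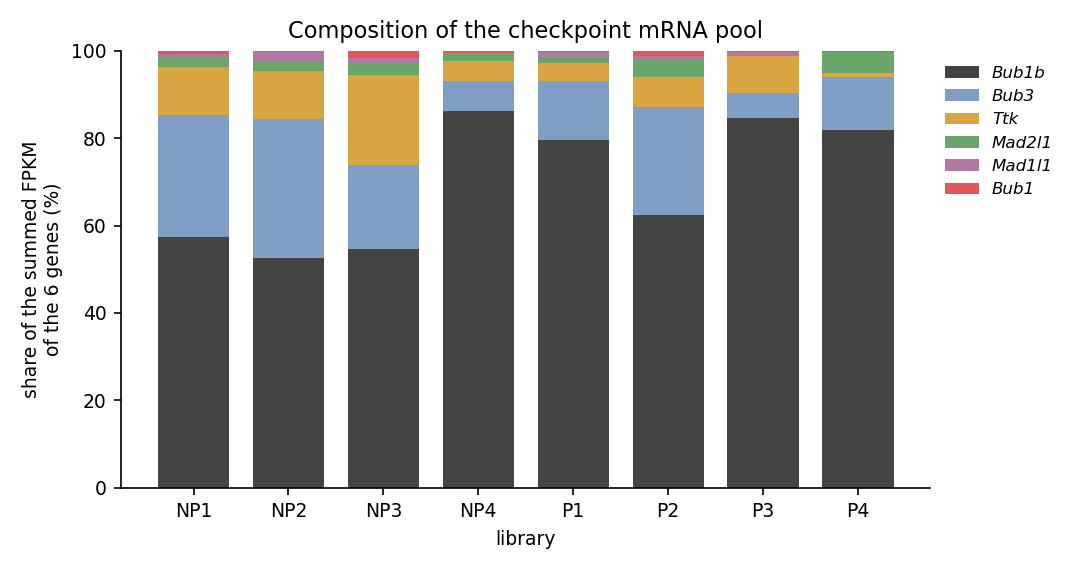
Share of each gene in the summed FPKM of the 6 genes, in percent, for each library. Bub1b fills 52.5 to 86.3% in NP and 62.4 to 84.6% in P, and NP replicate 4 stands apart from the other NP libraries.

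The size to which FPKM values were scaled, recovered from the steps between them, was 1299377 to 7594637 in NP and 2677946 to 4699328 in P. The recovered reads summed to 1.51 to 1.69 times this size in NP and 1.35 to 1.78 times in P, and the reason was not tested. The oocyte identity was clear, since all 8 oocyte markers (Zp1, Zp2, Zp3, Gdf9, Bmp15, Mos, Oosp1 and Nlrp5) were above 0 in every library, with a summed FPKM of 5661 to 12009.8 in NP and 7976 to 29858 in P. Of 10 markers of cumulus and granulosa cells, 4 (Foxl2, Has2, Ptx3 and Amhr2) were at 0 in all 8 libraries, and the sum of the 10 was 6.07 to 75.4 in NP and 1.61 to 62.6 in P, most of it Cyp19a1. Without Cyp19a1 the sum was at most 0.370 in NP and 6.84 in P. P replicate 4 held the lowest P value of 5 of the 6 checkpoint genes and was the lowest P library for 53.0% of all genes tested with ties counted, or 24.3% without ties. It also had the fewest genes above 0 of any library, 9139, against 10287 to 11339 in the other P libraries and 11703 to 13753 in NP, and the part of this difference in the checkpoint values was not tested. NP replicate 4 held the lowest NP value of 4 of the 6 checkpoint genes and was the lowest NP library for 44.4% of all genes tested with ties counted, or 29.9% without ties, although the size recovered for it was the highest.

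The scaling between the datasets moves every fold change. The median log2 fold change was −0.39 over all genes tested and −0.29 over the 6 checkpoint genes, of which 3 lay above the median of all genes, as 50% of genes do by definition. The median over all genes became −0.02 after quantile normalization and 0.21 after median scaling. Relative to the median of all genes in the same fit, Bub1b was 0.78 to 1.85 higher on the log2 scale in all 16 fits. Ttk ranged from −1.11 to 0.27. Cdc20, which is not a member, was also higher in all 16 fits, by 0.49 to 1.63. Its log2 fold change was 0.42 (standard error 0.70, adjusted p = 0.798 from limma). The fits draw on the same 8 libraries, so their agreement is not independent evidence.

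The wider checkpoint and kinetochore machinery was followed in a list of 30 other genes, covering Cdc20, checkpoint silencing, the Rod-Zw10-Zwilch complex, the kinetochore scaffold, the chromosomal passenger complex and the shugoshins. Of these 29 were found in the table, 5 of them under an older symbol, and 28 were tested. At an adjusted p below 0.1, limma called 0 of the 28 genes, and voom called 0. Their log2 fold changes were above 0 for 12 genes and below 0 for 16, with a median of −0.26 beside −0.39 over all genes. Ube2c, the ubiquitin-conjugating enzyme that works with the anaphase-promoting complex, was the single gene of the list whose libraries did not overlap between the datasets, against 6.28% of all genes tested in either direction. Its FPKM was 170.0, 59.5, 82.8 and 187 in NP replicates 1 to 4 and 43.5, 55.7, 13.7 and 34.0 in P replicates 1 to 4, with each NP library above each P library. The log2 fold change was −1.74 (standard error 0.64, 95% interval −3.13 to −0.36, unadjusted p = 0.0171, adjusted p = 0.420 from limma), which did not pass the threshold. In level, 0 of the 29 genes had a higher mean FPKM over the 8 libraries than Bub1b, 2 exceeded Ttk, 10 exceeded Mad2l1 and 17 exceeded Bub1.

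**Figure D5:**
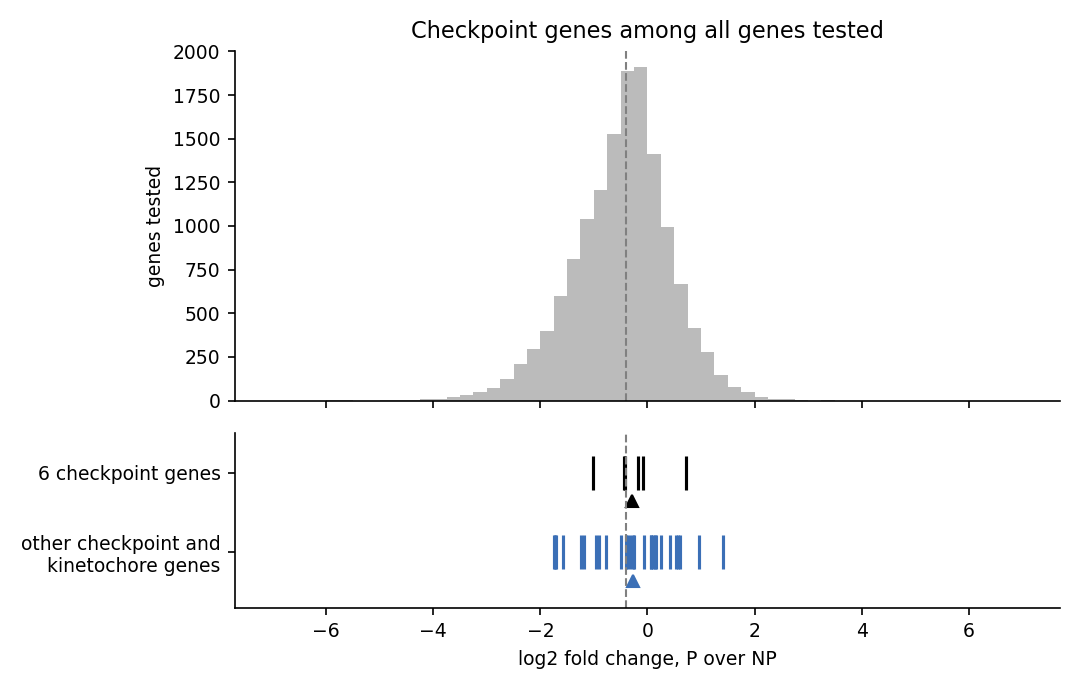
Histogram of the log2 fold change of P over NP for the 14292 genes tested (top, in bins of 0.25) and the values of the 6 checkpoint genes and the 28 other checkpoint and kinetochore genes (bottom, one tick per gene; triangles, medians; dashed line, median of all genes tested). The 6 checkpoint genes lie between −1.02 (Ttk) and 0.72 (Bub1b), and the 28 others between −1.74 (Ube2c) and 1.41 (Cenpe).

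The genes whose values across the 8 libraries most resembled each member were found by Pearson's r of log2(FPKM + 1) over 11373 other genes that averaged more than 1 FPKM in NP or P. Each r is the highest of many, over only 8 libraries of unequal depth, and is given as a description. Ttk was most like Fbxo43, the meiotic inhibitor of the anaphase-promoting complex, with r = 0.98, followed by Npc1 (0.97). Bub3 was most like Alas1 (0.99) and Mto1 (0.98), and Mad1l1 most like Ybx1 and Farsb (0.97 each). Mad2l1 was most like Ica1l (0.97) and Atp7a (0.96), Bub1b most like Gm20457 (0.96) and Akr1c21 (0.93), and Bub1 most like Cdkn2c and Mmgt1 (0.94 each). Among the checkpoint genes themselves the highest r was that of Mad1l1 and Ttk, 0.90, both lowest in replicate 4 of each dataset, and the lowest was that of Mad2l1 and Bub1b, −0.42.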

How the data were processed

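Per the labels and the study's methods, the authors used Trim Galore 0.4.1 for trimming and HISAT2 2.0.5 for alignment (GRCm38), and Seqmonk then gave FPKM per gene, on a linear scale. Ribosomal RNA was depleted, and cDNA was primed with random and oligo(dT) primers and amplified. The deposited FPKM values per library were used. The authors' table of means and ratios and their table of DESeq2 fold changes and p values were not used. P and NP libraries, grouped by title, were compared 2-sided with limma 3.58.1 (R 4.3.3, eBayes with a trend) on log2(FPKM + 1), with Benjamini-Hochberg adjustment over all 14292 genes and a threshold of 0.1. The labels call the libraries replicates, and the study's methods call them biological replicates. NP and P libraries were not paired in the main fit.

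Reads were recovered by scaling each library so that FPKM became whole multiples (tolerance 0.01 of a step plus 2e-06 of the count), with exon lengths of GENCODE M21 for 6968 genes and a searched length of 100 to 30000 bp for 7694, the latter including Mad2l1, Mad1l1, Bub3 and Ttk. Of the values above 0, 99.0% came out whole, in part by construction where lengths were searched. The sources used here do not say if 1 step is 1 read or 1 fragment. Steps were also tested with voom.

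The members and gene lists were chosen with earlier results of these data known. Named beside the members are listed genes that were called (none was), up to 5 per direction with the largest moderated t among those without overlap, and 2 genes of most similar pattern per member. The limma script was tested on simulated data with changes larger than that of any member. That test does not say how often a change of the members' size would be called. Alternatives were the pseudocount, the filter, the scaling, the replicate number as a block, voom, and single libraries left out. Proteins were not analysed here.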

Additional observations from a re-analysis of the deposited data

Results flagged for a closer look

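Mad2l1 in P replicate 3 stood far from the other P libraries, with an FPKM of 1.12 against 47.6 to 61.6. On the log2(FPKM + 1) scale the gap to the nearest library was 0.925 of the whole range of the 4 values, above Dixon's critical value for 4 samples. The groups of 4 values examined numbered 16, for the 6 checkpoint genes, Cdc20 and Ube2c in each dataset, and this was the single group to stand out. The critical value used flags about 1 group in 20 by chance. Why Mad2l1 was low in this library was not tested.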

How the results depend on the processing

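None of the 6 checkpoint genes and none of the 28 others was called by limma under any of the 15 alternatives, voom included. At an unadjusted p below 0.05, Bub1b passed after median scaling and with voom, and 0 to 5 of the others passed. Over all genes, the 3 calls became 5 with a pseudocount of 0.1, 5 with a mean FPKM above 1, 0 with no filter, with quantile normalization or after median scaling, 149 with voom, and 0 to 5 with single libraries left out (0 without any 1 NP library or P replicate 3), while 942 to 1598 genes had an unadjusted p below 0.05 where 0 were called. After median scaling the log2 fold change was 0.81 for Mad2l1, 1.16 for Bub3, 0.57 for Mad1l1, 1.10 for Bub1 and 0.29 for Ttk, against negative values as reported, and the median over the 6 genes was 0.96. Quantile normalization gave 0.15 for Mad1l1 and 0.54 for Bub1, and voom gave 0.13 for Bub3. With single libraries left out the log2 fold change ranged from −0.86 to 0.76 for Mad2l1, −0.74 to 0.15 for Bub3, −1.06 to 0.60 for Mad1l1, −0.45 to 0.35 for Bub1 and −1.50 to −0.09 for Ttk, the median over the 6 genes from −0.70 to 0.22, and 4 to 6 of the 6 genes kept their place in the order of levels. The cause of these changes was not tested.

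A replicate block in the model left 1 gene called in place of 3 and changed no other call. The lowest unadjusted p of a checkpoint gene in that fit was 0.0824 (adjusted p = 0.462 from limma), for Ttk, which was lower in P than in the NP library of the same number in 4 of 4 cases, as were 16.5% of all genes tested. As a check of the pairing, the correlation of deviations was 0.139, 0.0518, 0.251 and 0.155 for libraries sharing the numbers 1 to 4. For other combinations it was −0.135 to 0.136. Each P library correlated best with the NP library of its own number, whereas NP replicate 2 correlated best with P replicate 1. Each gradient gave both pools, but the sources used here do not say that a number marks 1 gradient. The main fit was therefore unpaired, with the block as an alternative.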
